A study of Homo sapiens with 2 samples.

Results

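Cyclins, cyclin-dependent kinases (CDKs), their inhibitors and the phosphatases that switch CDKs on were compared between 2 RNA-seq libraries of A549, an established human lung adenocarcinoma line. The genes were taken by name: cyclins written as CCN with a letter, CDKs with a number, all names beginning with CDKN, and CDC25A, CDC25B and CDC25C. CDKN1A, CCNG1 and names ending in IP1 or IP1L1 were left out by the rule, and so were loci that name several genes. The rule found 48 genes of 12936 named genes. Because it goes by name, it also takes CDKN2AIP and CDKN2AIPNL, which are named after a partner of the CDKN2A product and a relative of that partner, and CDKN3, a phosphatase that acts on CDKs.

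One library was from wild type A549 cells and the other from A549 cells labelled as a MYOCD knockdown. MYOCD encodes myocardin, a coactivator of serum response factor. The label on both samples gives doxycycline for 72 h, whereas the series text describes the wild type cells as untreated. Doxycycline and the knockdown therefore cannot be told apart if only one culture received it. The knockdown sample is titled MYOCD-/- but its genotype is given as knockdown, and the method and the number of clones are not given here by any label. With 1 library per group no difference was tested, and no value has a replicate error. The values are RPKM, read numbers scaled to transcript length and to the mapped reads of the library, so levels can be compared between genes. No counts were given and the depth is unknown. In each pair of values below the wild type library comes first.

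MYOCD itself had 0.881 and 0.400 RPKM, close to the lowest level in the table, where the higher value of every locus is at least 0.652 RPKM. Of 13 epithelial and A549 markers 9 were matched. The epithelial keratins KRT8 and KRT18 and the aldehyde dehydrogenase ALDH1A1, which A549 cells express strongly, had 1545 and 1521, 1776 and 1683, and 2370 and 2374 RPKM. The 9 markers had a median log2 difference of -0.04, with 2 higher and 7 lower. The highest was AKR1B10, an aldo-keto reductase, with 451 and 565 RPKM (0.32), and the lowest were NAPSA, an alveolar protease, with 1.27 and 0.771 RPKM (-0.36) and ALDH3A1 with 689 and 624 RPKM (-0.14). The lung markers NKX2-1, SFTPB, SFTPC and SLC34A2 were not matched to a single-gene locus. Of 6 leukocyte markers, CD14 and LYZ were matched, and the list summed to 3.71 and 4.10 RPKM. Of 9 endothelial and fibroblast markers, COL1A1 was matched, at 2.76 and 2.41 RPKM. The part of other cells in the differences below was not tested.

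Cyclins bind and activate CDKs, and successive pairs carry a cell through its division cycle. D-type cyclins with CDK4 or CDK6 and E-type cyclins with CDK2 act in G1 on the retinoblastoma protein, which then releases E2F factors. Cyclin A with CDK2 and cyclin B with CDK1 act in S phase and mitosis. INK4 inhibitors bind CDK4 and CDK6, CIP/KIP inhibitors bind a broader set of cyclin-CDK pairs, and CDC25 phosphatases remove inhibitory phosphates from CDKs. A further group of cyclins and CDKs acts on RNA polymerase II and splicing rather than on the cycle. A549 cells are known for loss of the CDKN2A locus and for an intact RB1 gene.

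Differences are on a log2 scale, knockdown over wild type, after 1 was added to each RPKM. This scale makes differences of low genes look smaller. Of the 48 genes, 45 had a mean of at least 1 RPKM over both libraries and were counted. None of the 45 was 2-fold higher or 2-fold lower on this scale, whereas of all 12158 genes at that level 0.65% were 2-fold higher and 0.724% were 2-fold lower. At a smaller size of 1.5-fold, 2 of the 45 were higher (CCND1 and CDC25A), beside 1.65% of all genes, and 1 was lower (CCNG2), beside 3.2% of all genes. With equal RPKM sums CCND1 and CDC25A lay at 0.51 and 0.46 and CDKN2D passed 1.5-fold beside CCNG2, while 7.60% of all genes passed it in either direction. With 5 added in place of 1 CCND1 alone passed it, beside 1.83% of all genes, and with 0.1 added 4 genes did (CDKN2D besides the 3 named), beside 7.90%. These counts are too small to set the group apart from other genes. The median difference of the 45 genes was -0.02, beside 0.01 for all genes, and 35 of them (77.8%) lay within 0.25 of 0, beside 71.3% of all genes. By sign, 18 were higher (40%) and 27 lower (60%) in the knockdown library, beside 52.1% and 47.9% of all genes. The sign of small differences depends on scaling: with both libraries set to the same summed RPKM over all loci, the median gene shifted by -0.18, and 11 of the 18 turned lower. The 7 that did not were CCND1, CDC25A, CCNY, CCNT2, CDK12, CCNC and CDK4, of which CDK4 then lay at 0.00. Other scalings moved the values less. The log2 factor was -0.199 for equal sums over all loci but -0.007 for equal sums over named loci. For equal medians and equal upper quartiles over named genes it was 0.008 and -0.038.

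**Figure D1:**
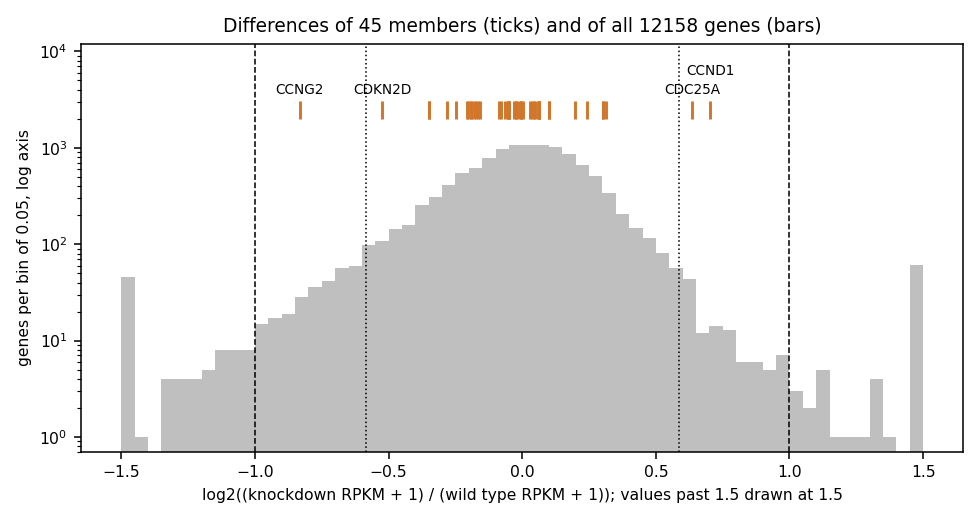
Histogram of log2((knockdown RPKM + 1) / (wild type RPKM + 1)) for 12158 genes (bars, logarithmic count axis) with the 45 cyclin, CDK, inhibitor and phosphatase genes as ticks. Dashed lines mark 2-fold and dotted lines 1.5-fold. CCND1 (0.70) and CDC25A (0.64) lie beyond the upper dotted line and CCNG2 (-0.83) beyond the lower one, and no tick reaches 2-fold.

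The level of these genes spanned a wide range. The mean over both libraries was at least 50 RPKM in 10 genes, from 10 to 50 RPKM in 20, from 1 to 10 RPKM in 15 and under 1 RPKM in 3. The 10 highest were, in order, CCND3, CDC25B, CCND1, CCNB1, CDK1, CDK4, CCNI, CDKN3, CCNB2 and CDK16. The median over all 48 genes was 18.3 RPKM, beside 12.5 RPKM over all genes counted. The 3 lowest were CDKN1C, CCNB3 and CDKN2A.

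**Figure D2:**
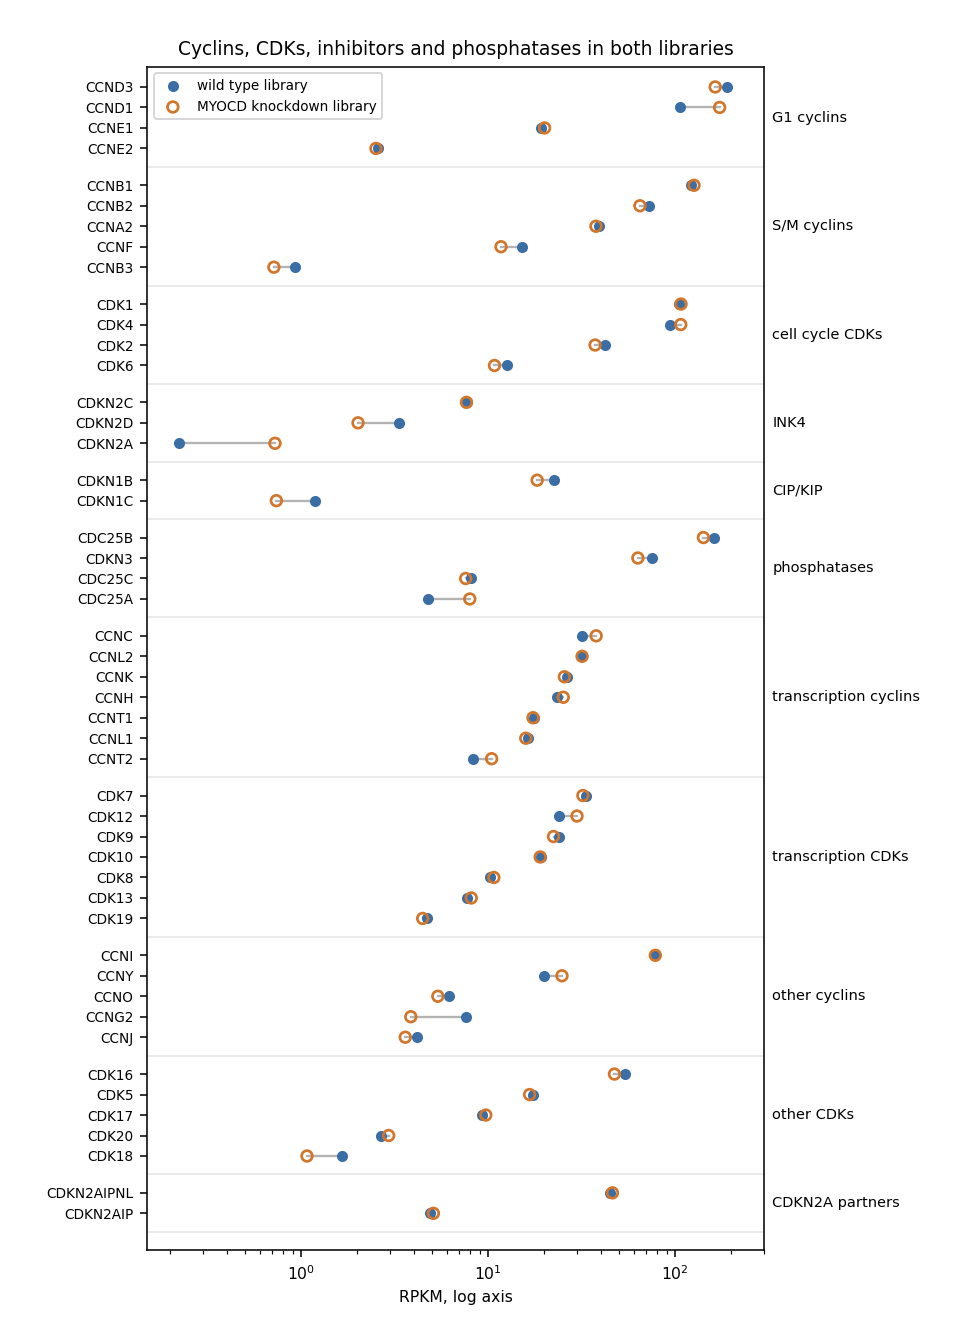
RPKM of each of the 48 genes in the wild type library (filled) and the knockdown library (open), on a log axis, grouped by role and ordered by mean level. The markers of most genes touch, and the longest lines among genes above 1 RPKM are those of CCNG2, CDC25A, CCND1, CDKN2D and CDK18.

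Among the G1 cyclins, cyclin D1 was higher in the knockdown library and cyclin D3 lower. CCND1, the mitogen-responsive D-type cyclin, had 106 and 173 RPKM, a 1.64-fold ratio and a log2 difference of 0.70. In GENCODE release 29 (GRCh38) its gene spans positions 69641087 to 69654474 of chromosome 11, plus strand. The gene LTO1 overlaps it on the other strand. A higher difference was found in 127 of 12158 genes (1.04%). CCND3, the D-type cyclin with the highest mean level, had 189 and 164 RPKM, a log2 difference of -0.21. CCND3 was thus the more abundant message in the wild type library, and both were about level in the knockdown library: the ratio of CCND1 to CCND3 was 0.559 and 1.06. This ratio within a library does not depend on how the libraries are scaled. The sum of both genes was 295 and 337 RPKM, a ratio of 1.14 that became 0.994 with equal RPKM sums. CCND2, the remaining D-type cyclin, was not analysed here. The E-type cyclins, which act after the D-type cyclins, differed little. CCNE1 had 19.1 and 20.0 RPKM and CCNE2 had 2.57 and 2.51 RPKM, so that CCNE1 made up 88.2% and 88.9% of their sum.

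The kinases of these cyclins differed by less than cyclin D1. CDK4 had 93.3 and 107 RPKM (0.20) and CDK6 had 12.6 and 10.8 RPKM (-0.20). CDK4 was the main partner of the D-type cyclins by message level, at 88.1% and 90.8% of the sum of both. That sum was 106 and 118 RPKM, a ratio of 1.11 that became 0.970 with equal sums. CDK2, the partner of cyclins E and A, had 42.4 and 37.3 RPKM, a log2 difference of -0.18. CDK4 holds the microRNA gene MIR6759 on its own strand and overlaps TSPAN31 and MARCH9 on the other, and CDK2 overlaps PMEL on the other strand. No label or header says whether strand was used in counting, so reads of such neighbours could be included.

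The 5 INK4 and CIP/KIP inhibitors kept by the rule, which leaves out CDKN1A, were level or lower in the knockdown library, apart from CDKN2A, which lay near the floor. CDKN1B, which encodes p27 and was the most abundant inhibitor kept by the rule, had 22.4 and 18.3 RPKM, a log2 difference of -0.28. CDKN2D, which encodes the INK4 protein p19, had 3.34 and 2.02 RPKM and a log2 difference of -0.53. CDKN2D spans positions 10566462 to 10569059 of chromosome 19, minus strand, and 4.23% of all genes had a lower difference. CDKN2C, which encodes p18, had 7.69 and 7.66 RPKM. CDKN2C was thus level while CDKN2D was lower, and the ratio of CDKN2C to CDKN2D was 2.30 and 3.80. CDKN1C, which encodes p57, had 1.19 and 0.737 RPKM, under the mean of 1 RPKM needed for counting. CDKN2A, which encodes p16 and ARF, had 0.221 and 0.725 RPKM. Its value passed the floor of the table in the knockdown library alone, so a gene at this level had to differ to be listed, and its 2 values are not read as a difference. Summed over these 5 genes, inhibitor messages stood at 34.8 and 29.4 RPKM, a ratio of 0.844, or 0.736 with equal sums. CDKN1B made up most of this sum, which also includes CDKN1C and CDKN2A, both under the level needed for counting. CDKN2B was not analysed here.

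**Figure D3:**
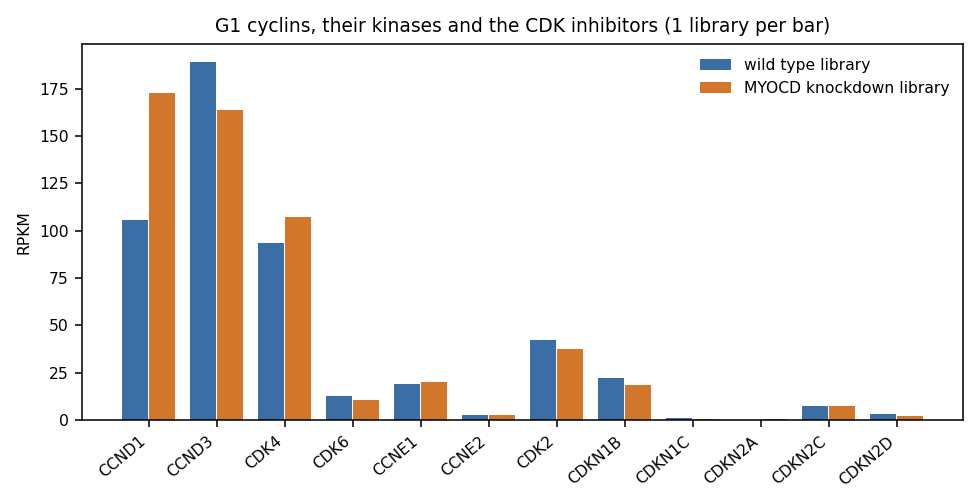
RPKM of the D- and E-type cyclins, the kinases they bind and the CDK inhibitors kept by the rule (CDKN1A is left out), with 1 bar per library and no error bar because each group had 1 library. The CCND1 bar is shorter than the CCND3 bar in the wild type library (106 and 189 RPKM) and of similar height in the knockdown library (173 and 164 RPKM), and the tallest inhibitor bar is that of CDKN1B (22.4 and 18.3 RPKM).

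Of the phosphatases, CDC25A stood apart from its relatives. CDC25A, which activates CDK2 at the entry into S phase, had 4.78 and 7.98 RPKM, a 1.67-fold ratio and a log2 difference of 0.64. It spans positions 48157146 to 48188402 of chromosome 3, minus strand, and 1.26% of all genes had a higher difference. In the annotation 3 genes overlap it on the other strand. CDC25B, which acts at the entry into mitosis, had 162 and 142 RPKM (-0.19), and CDC25C, which also acts there, had 8.08 and 7.58 RPKM (-0.08). CDC25B held most of the message of this family in both libraries, and its ratio to CDC25A was 33.8 and 17.7. CDKN3, which removes an activating phosphate from CDKs, had 75.2 and 63.2 RPKM (-0.25).

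Among the cyclins of S phase and mitosis and their kinase, CCNB1, CCNA2 and CDK1 were almost level, and CCNB2 and CCNF were lower. CCNB1, the main mitotic cyclin, had 122 and 126 RPKM, and its kinase CDK1 had 105 and 107 RPKM. CCNA2, the cyclin of S phase and early mitosis, had 39.2 and 37.7 RPKM. CCNB2, a further mitotic cyclin, had 72.4 and 64.8 RPKM (-0.16). CCNF, which is not a CDK partner but an F-box protein of a ubiquitin ligase, had 15.2 and 11.7 RPKM (-0.35), and it holds the microRNA gene MIR6767 on its strand. CCNB3 had 0.927 and 0.715 RPKM. With equal RPKM sums the differences of CCNB1 and CDK1, 0.05 and 0.03 as deposited, became -0.15 and -0.17.

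The other cyclins held the lowest difference of the whole group. CCNG2, an atypical cyclin that is known to accumulate in cells leaving the cycle and to slow proliferation, had 7.66 and 3.86 RPKM. The knockdown value was 0.504 of the wild type value, a log2 difference of -0.83 with the pseudocount and -0.99 without it, and 1.22% of all genes had a lower difference. In the annotation CCNG2 spans positions 77157151 to 77433388 of chromosome 4, plus strand, and 4 genes overlap it on the other strand. With equal RPKM sums it reached -1.0 and was the single gene of the group to pass 2-fold. CCNY, a membrane-bound cyclin that activates CDK14 and CDK16, was higher, with 19.8 and 24.8 RPKM (0.31). CCNI, abundant and little regulated through the cycle, had 78.1 and 78.3 RPKM. CCNJ had 4.17 and 3.61 RPKM, and CCNO, which acts in the formation of multiciliated cells, had 6.21 and 5.38 RPKM.

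Cyclins and kinases of transcription were level with a few exceptions, all of them higher. CCNC, which pairs with CDK8 or CDK19 in the Mediator complex, had 31.8 and 37.8 RPKM (0.24). CDK8 had 10.2 and 10.7 RPKM and CDK19 had 4.71 and 4.47 RPKM. CCNT2 had 8.27 and 10.4 RPKM (0.30), while CCNT1, its paralog in the elongation factor P-TEFb, had 17.7 and 17.4 RPKM. Both pair with CDK9, which had 23.8 and 22.4 RPKM. CDK9 holds the microRNA genes MIR3960 and MIR2861 on its strand. CDK12, which phosphorylates RNA polymerase II and is needed for long genes and DNA repair genes, had 24.1 and 29.9 RPKM (0.30). Its cyclin CCNK had 26.6 and 25.6 RPKM, and the related kinase CDK13, which shares that cyclin, had 7.73 and 8.13 RPKM. As deposited, CCNT2 and CDK12 thus differed where their partners CDK9 and CCNK were almost level, although all these differences were under 1.5-fold. With equal sums CCNT2 lay at 0.12, CDK12 at 0.11 and CCNC at 0.05, while CDK9 lay at -0.28 and CCNK at -0.24. Which genes of these pairs look level thus depends on the scaling. CDK7 and CCNH, which form the CDK-activating kinase with MNAT1, had 33.2 and 32.1 RPKM and 23.4 and 25.2 RPKM. The splicing cyclins CCNL1 and CCNL2 had 16.2 and 15.9 RPKM and 31.9 and 31.8 RPKM. CDK10 had 19.2 and 19.0 RPKM. The CDK11A and CDK11B genes share a locus with SLC35E2, which had 19.8 and 19.3 RPKM and was not counted, and CDK3 shares one with TEN1, at 11.6 and 8.25 RPKM.

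The remaining kinases were lower or level. CDK16, a target of cyclin Y, had 54.2 and 47.4 RPKM (-0.19), and its relatives CDK17 and CDK18 had 9.30 and 9.72 RPKM and 1.64 and 1.08 RPKM. CDK18 thus had a log2 difference of -0.35 at a level near the floor. CDK5, best known from neurons, had 17.3 and 16.7 RPKM, and CDK20 had 2.68 and 2.94 RPKM. CDKN2AIP and CDKN2AIPNL had 4.91 and 5.10 RPKM and 45.0 and 46.2 RPKM.

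The genes around these members were described by 6 lists, chosen with earlier results of these data known. Over the 6 lists, no gene was 2-fold higher or lower on the scale with 1 added, on which all counts of the lists are given. Of all genes, 0.65% were 2-fold higher and 0.724% 2-fold lower, and 1.65% were 1.5-fold higher and 3.2% 1.5-fold lower. Against these shares the counts past either size are too small to set any list apart. By sign, 52.1% of all genes were higher and 47.9% lower, which is the background for the counts of higher and lower genes in each list. The retinoblastoma proteins and E2F/DP factors had a median of 0.06 over 19 genes, with 10 higher and 9 lower. E2F5, a repressor-type E2F, had 10.3 and 16.0 RPKM (0.59) and was the single gene of this list past 1.5-fold after 1 was added, and LIN54, a DNA-binding subunit of the DREAM complex, had 3.98 and 6.33 RPKM (0.56). The lowest were E2F8, an atypical repressor E2F, with 5.19 and 3.41 RPKM (-0.49), and RBL2, which encodes p130, with 24.0 and 18.1 RPKM (-0.39). RBL1, which encodes p107, was higher at 8.57 and 11.1 RPKM (0.34), RB1 had 13.4 and 14.7 RPKM, and E2F1 had 22.5 and 19.1 RPKM.

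E2F-driven S phase genes, which are transcribed when G1 cyclins and CDKs act on retinoblastoma proteins, were level as a list. Their median was -0.01 over 21 genes, with 8 higher and 13 lower. The extremes were CDT1, a replication licensing factor, with 25.3 and 19.4 RPKM (-0.37), TK1 with 105 and 88.8 RPKM (-0.24), RRM2 with 74.4 and 86.4 RPKM (0.21), and CDC6, another licensing factor, with 24.3 and 28.7 RPKM (0.23). No gene of this list passed 1.5-fold.

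The ubiquitin ligases that remove cyclins and inhibitors leaned higher in one list and were mixed in the other. SCF ligase genes had a median of 0.09 over 12 genes, with 8 higher and 4 lower. FBXO4, an F-box protein reported to bind cyclin D1, had 4.68 and 8.12 RPKM (0.68) and was past 1.5-fold. SKP2, the F-box protein for p27, had 13.5 and 18.8 RPKM (0.45). The lowest were FBXW11 with 31.2 and 26.2 RPKM (-0.24) and AMBRA1, the D-type cyclin adaptor of a related CUL4 ligase, with 8.94 and 7.78 RPKM (-0.18). With equal sums the median of this list was -0.09, beside -0.17 for all genes. The sign of its median thus depends on the scaling, while it lay above that of all genes in both settings. The anaphase-promoting complex, which marks cyclins A and B for destruction, had a median of 0.03 over 19 genes, with 11 higher and 8 lower and none past 1.5-fold. ANAPC7 had 25.01 and 30.6 RPKM (0.28), ANAPC13 had 34.1 and 41.3 RPKM (0.27), ANAPC10 had 10.2 and 8.75 RPKM (-0.20) and C11orf51 (now ANAPC15) had 29.6 and 25.6 RPKM (-0.20). With equal sums this median was -0.17, as was that of all genes.

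Proteins that bind or modify CDKs had a median of -0.01 over 16 genes, with 8 higher and 8 lower. WEE1, the kinase that opposes CDC25, had 17.6 and 20.7 RPKM (0.22) and CABLES1 had 3.05 and 3.92 RPKM (0.28). CDK5R2, an activator of CDK5, had 1.71 and 0.845 RPKM (-0.56), at a level near the floor, and CCNDBP1 had 11.6 and 10.2 RPKM (-0.17). Partners of the transcription CDKs had the lowest median, -0.13 over 17 genes, with 3 higher and 14 lower and none past 1.5-fold. MED13L, which links the CDK8 module to Mediator, had 32.3 and 24.7 RPKM (-0.37). HEXIM2, an inhibitor of P-TEFb, had 11.0 and 8.50 RPKM (-0.33). MEPCE, which caps the RNA that holds P-TEFb inactive, had 17.5 and 21.1 RPKM (0.25), and GTF2H3 had 23.7 and 28.1 RPKM (0.24).

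**Figure D4:**
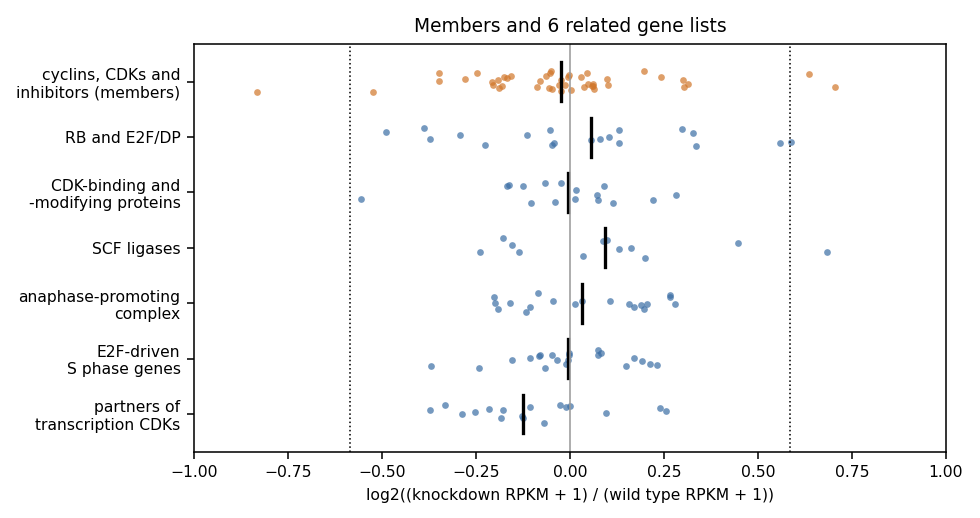
Log2((knockdown RPKM + 1) / (wild type RPKM + 1)) of the 45 cyclin, CDK, inhibitor and phosphatase genes and of 6 related gene lists, with 1 point per gene, the median as a black bar and dotted lines at 1.5-fold. The medians run from -0.13 for partners of transcription CDKs to 0.09 for SCF ligases, and the points beyond the dotted lines are CCNG2, CDC25A, CCND1, FBXO4 and E2F5.

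The promoters of the mitotic members were examined because CDK1, CCNB2 and CDC25C are textbook cases of periodic transcription through the CHR element (searched as TTTGAA and TTCGAA), the E2F site (searched as TTCGCGC and TTGGCGC) and the CCAAT box (searched as CCAAT). Windows of 250 bases before to 50 after each start site were taken from RefSeq (GRCh38.p14), on both strands, and 44 of 48 genes were in that table. CCND1, CCNE2, CDK2 and CDKN1C were missing from it, so no motif was searched for in their promoters. A gene was counted when any of its listed start sites held the letters. An E2F match was found in 7 of 44 genes (15.9%), beside 6.10% of all 27305 genes in the table. For every motif this background was not limited to genes with RPKM values in these libraries, as the members were. The shares are thus not a like comparison. The members had 1.55 start sites per gene on average and all genes 1.29, so they were searched over more sequence. A CHR match was found in 9 of 44 genes (20.5%), beside 19.5% of all genes, and a CCAAT box in 22 (50%), beside 39.7%. A CArG box, the element bound by serum response factor, was found in 0 of the 44 genes searched, beside 1.60% of all genes. This says only that the letters searched were not in the windows of these genes, and CCND1 was not among them.

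Windows around the matches are shown for CDC25A, the phosphatase that was higher, and for mitotic members that were level or slightly lower, with the matched bases in capitals, written 5′ to 3′ on the strand of the gene. Some belong to start sites that RefSeq lists inside the gene. For CDC25A (chr3:48188441-48188470, minus strand) 2 E2F matches on opposite strands overlap. CDK1 held several matches of each kind, and the 1 nearest before a start site is shown where there was a choice, at chr10:60778293-60778319 for E2F and chr10:60778455-60778480 for CHR, both on the plus strand. The other windows are chr5:69167008-69167034 for CCNB1 (plus), chr15:59105107-59105132 for CCNB2 (plus) and chr5:138331819-138331844 for CDC25C (minus).
CDC25A, E2F: tggattccgtTTGGCGCCAActaggaaagg
CDK1, E2F: tcgcactcagTTGGCGCccgccctcct
CCNB1, E2F: ctcgaacgccTTCGCGCgatcgccctg
CDK1, CHR: gcgcggtgagTTTGAAactgctcgca
CCNB2, CHR: cgacgcggtaTTTGAAtcctggaaca
CDC25C, CHR: tggcggaaggTTTGAAtggtcaacgc

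Genes with each match lay on both sides of 0. The 22 genes with a CCAAT box had a median of -0.07, with 5 higher and 17 lower, beside 18 and 27 of the 45 counted genes, which include these 22. Differences of all genes with a CCAAT box were not computed, so these counts have no wider background. The 7 genes with an E2F match were CDC25A, CDK1, CCNB1, CCNL1, CCNO, CDK10 and CDK16, with a median of -0.01 and a range from -0.19 to 0.64. The 9 with a CHR match were CCNB2, CCNC, CCNF, CCNI, CDC25B, CDC25C, CDK1, CDK19 and CDKN3, with a median of -0.08 and a range from -0.35 to 0.24. CDK1 and CDC25A both held E2F letters, at log2 differences of 0.03 and 0.64.

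The 3′ UTRs were examined for seed matches of microRNAs known to act on cyclins and CDKs, because CDC25A and CCND1 are among their textbook targets. The longest annotated 3′ UTR of each gene (GENCODE release 29) was searched for 7-base matches to bases 2 to 8, the seed, of let-7, miR-16, miR-34a and miR-17. The mature sequences, from RefSeq (GRCh38.p14) with the seed in capitals, show which bases define each match.
hsa-let-7a-5p: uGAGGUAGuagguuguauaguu
hsa-miR-16-5p: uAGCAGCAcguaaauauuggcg
hsa-miR-34a-5p: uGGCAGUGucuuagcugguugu
hsa-miR-17-5p: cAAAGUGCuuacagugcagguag

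The let-7 match CTACCTC was present in 8 of 45 genes (17.8%), beside 11.3% of 10989 genes with an annotated 3′ UTR. CDC25A was the single gene with 2 matches. Its sites, at chr3:48158795-48158817 and chr3:48158379-48158401 on the minus strand, are shown beside those of CCNY (chr10:35571445-35571467, plus strand) and CCNG2 (chr4:77169228-77169250, plus strand), the other members with the match that differed most in each direction.
CDC25A, first site: ccttaaacCTACCTCccacactc
CDC25A, second site: cccagggaCTACCTCggctttta
CCNY: cctggattCTACCTCtgtatagg
CCNG2: tgttcctgCTACCTCccacctcc

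Genes with the let-7 match lay at both ends of the range. CDC25A, CCNY, CCNT2 and CDK12 were higher (0.64, 0.31, 0.30 and 0.30), and CCNG2, CCNF, CDC25B and CCNJ were lower (-0.83, -0.35, -0.19 and -0.17). The median of the 8 genes was 0.07 and that of the other members was -0.02, while over all genes the medians with and without the match were 0.04 and 0.01. Members with the match had longer UTRs, with a median of 3064 bases beside 1157 in the others. The miR-16 match TGCTGCT was found in 15 members (33.3%, beside 25.5% of all genes), CCND1, CCND3, CCNE1, CDC25A and CDK6 among them, with a median of 0.06. Members without it had a median of -0.05, and all genes with and without it 0.03 and 0.01. The miR-34a match CACTGCC was found in 6 (13.3%, beside 17.8% of all genes), with a median of -0.13. Members without it had a median of -0.01, and all genes with and without it 0.01 and 0.01. The miR-17 match GCACTTT was found in 8 (17.8%, beside 25.5%), CCND1 among them, with a median of -0.08. Members without it had a median of -0.02, and all genes with and without it 0.04 and 0.00. For these 3 words, too, members with the match had longer UTRs. The median lengths were 1981, 1760 and 2910.5 bases, beside 1158, 1159 and 1160 in members without it. The word AATATGC, which earlier results of these data had singled out in lower genes, was present in 4 counted members (8.89%, beside 11.5% of all genes): CDK6 (-0.20), CCNJ (-0.17), CCNT1 (-0.02) and CDK12 (0.30). The 3 genes past 1.5-fold did not hold it. A match is a description of letters, and binding was not measured.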

How the data were processed

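The deposited table holds RPKM values that the authors computed for 2 libraries, 1 per group. The submitters' processing notes name Cufflinks 2.2.1, TopHat2 2.0.10 and 2 builds (BDGP5, of the fruit fly, and GRCh38.p12) with no role for any of them. The sources used here do not give the annotation, the filters or the use of strand. Lines with the same gene name were summed, and genes whose mean reached 1 RPKM were counted against sizes of 2-fold and 1.5-fold on the scale log2(RPKM + 1). No test fits 1 library per group. The members and the gene lists were chosen with earlier results of these data known. The rule for named genes allowed every member, and from each list the extremes (2 at either end), and list genes beyond these (RBL1, RB1, E2F1, KRT8 and KRT18) were chosen after their values were seen. Genes were matched to GENCODE release 29 by symbol (48 of 48). Of these, 26 overlap a gene of the other strand and 13 have a pseudogene named after them, so their values may include other reads. Calculations used Python 3.11.15, numpy 2.4.6 and pandas 2.3.3 and were tested on simulated data.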

Additional observations from a re-analysis of the deposited data

How the results depend on the processing

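The results were recomputed under 10 alternatives. No called difference changed sign, but none could have done so. A call needed a log2 difference of at least 0.585 in size, the largest log2 scaling factor was -0.199, and a pseudocount cannot reverse a sign. CCND1, CDC25A and CCNG2 were the genes past 1.5-fold as deposited, and of 441 values of single genes over all alternatives 389 moved by less than 0.1 and 52 by more. This tally is no measure of stability. Alternatives that only changed which genes were kept, or which line of a gene was used, could not move a member's value. With equal RPKM sums over all loci, each of the 45 values moved by more than 0.1. With a pseudocount of 5, 1 gene (CCND1) passed 1.5-fold, beside 1.83% of all genes, and with 0.1, 4 genes did, beside 7.90%. With equal RPKM sums over all loci, 1 gene (CCNG2, -1.0) passed 2-fold, beside 1.78% of all genes. In that setting 2 genes (CCNG2 and CDKN2D) passed 1.5-fold, beside 7.60%, and CCND1 and CDC25A lay at 0.51 and 0.46. The median of the cyclin, CDK and inhibitor genes was then -0.21, beside -0.17 for all genes, which is also the background for the list medians. In that setting the list medians were -0.11 for retinoblastoma and E2F/DP, -0.20 for CDK-binding proteins, -0.093 for SCF ligases, -0.17 for the anaphase-promoting complex, -0.20 for E2F-driven genes and -0.30 for partners of transcription CDKs. The factor comes from loci with no gene name, since equal sums over named loci left the 3 calls in place. No paired analysis was possible because each group had 1 library. Depth is unknown, so counting error could not be set.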
